A study of Homo sapiens with 6 samples.

Results

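The Control lines are 3 lines of U937, a long established human line with features of immature monocytes, each transduced with control plasmids. They were taken from a series of 6 RNA-seq libraries by their group label, so no measured value chose them, and they are 3 of its 6 samples. All 3 share the genotype called control, the plasmid transduction, selection with geneticin and culture in RPMI1640 with fetal bovine serum, and total RNA was extracted from each. The other 3 libraries of the series, depleted of CTSG, ELANE and PRTN3, enter no value below. Each Control line is numbered in the labels as a line of its own and was sequenced as a single library. A difference between lines therefore has no replicate behind it, no test was made, and line, culture and library cannot be told apart. Errors given as SD (n = 3) are the spread over these 3 lines.

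U937 was derived from a histiocytic lymphoma and is arrested early in the path from the granulocyte and monocyte progenitor to the monocyte. At that stage normal cells make the serine proteases of the azurophil (primary) granules, the first granules to form in myeloid cells, and have not yet taken up the surface receptors and antigen presentation of mature macrophages. PU.1 (the product of SPI1) and the C/EBP factors switch on the myeloid programme, while MYB and the late HOXA genes keep progenitors dividing.

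The count totals were 11866764, 13543076 and 11476619 in lines 1, 2 and 3. Levels between lines are given as CPM, the count of a gene scaled to a common library total with TMM factors, which were 0.985, 1.01 and 1.00. CPM also grows with transcript length, so the order of genes by CPM is an order of read shares, and levels of different genes are set against each other as mean CPM per kilobase of exon. A gene counts as on at 1 CPM or more in every line, as silent at 3 counts or fewer in every line, and as low otherwise. At these depths 3 counts equal 0.257, 0.219 and 0.261 CPM in lines 1, 2 and 3. This floor was chosen, and a silent gene can still hold a few counts. A total of 19 genes had 0 counts in every line. The table held 18798 genes with at least 10 counts over the series, and a gene outside it was not analysed here. Of the genes in the table, 13617 were on (72.4%), 4292 low and 889 silent. Protein-coding genes made up 12928 of them, with 11010 on (85.2%) and 315 silent, and held 92.8% of all counts. Mitochondrially encoded genes took 1.85%, 1.46% and 2.33% of counts, and ribosomal protein genes 7.75%, 6.24% and 7.16%. No batch or date is given in the labels.

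The genes that took the most reads were those of iron storage, the cytoskeleton, glycolysis and translation. FTL (ENSG00000087086), the light chain of the iron storage protein ferritin, had the highest mean CPM, with 3660.3, 6710.1 and 6821 CPM in lines 1, 2 and 3. Line 1 stood far below the other lines for this gene. ACTB, cytoplasmic beta actin, read 5466, 5800.2 and 5645 CPM, a mean of 5637 ± 167 CPM (SD, n = 3). TUBB, a beta tubulin, was the steadiest of the leading genes at 3431 ± 30.2 CPM (SD, n = 3). ENO1, GAPDH and PKM, all enzymes of glycolysis, were at 4910.1 ± 788, 3776 ± 274 and 2748 ± 276 CPM (SD, n = 3). The elongation factors EEF1A1 and EEF2 were at 4653 ± 569 and 2938 ± 628 CPM, the ribosomal protein genes RPS18 and RPL4 at 2524 ± 412 and 2429.9 ± 298 CPM, and the chaperone HSP90AB1 at 2666 ± 90.1 CPM (SD, n = 3). EEF1A1P5 is a processed pseudogene close in sequence to EEF1A1, so its 2426 CPM may hold reads of the parent gene. The others among the 20 highest were MT-CO1, MT-CO3 and MT-ND4 of the mitochondrial respiratory chain, ACTG1, TMSB4X, P4HB, TUBA1B and TPT1. These 20 genes took 6.55%, 6.68% and 7.36% of counts.

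Per kilobase of exon, FTL led the protein-coding genes at 6527 CPM per kb, followed by MT-CO3 (3706), MT-CO1 (3256), MT-CO2 (2611) and MT-ND4 (1813). CTSG, which encodes the granule protease cathepsin G, came next at 1736 CPM per kb, above TMSB4X (1604), ACTB (1602), MT-ATP6 (1333) and RPS18 (1329.9). On this scale a myeloid granule gene thus stood at the level of the most abundant housekeeping transcripts. By mean CPM, CTSG was at 2385 against 5637 for ACTB. The order depends on the exon lengths used, and with longest-transcript lengths 7 of these 10 genes stayed. TMSB4X, the actin monomer binding protein thymosin beta 4, was the one gene among the 20 highest that differed 2-fold or more between lines, at 1362, 3268 and 3572 CPM.

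The lineage lists, chosen with earlier results of these data known, held some monocytic genes on and several markers of mature monocytes off. Of the 22 measured monocyte and macrophage markers, 14 were on, 6 low and 2 silent, a share on of 63.6% against 72.4% of all genes and 85.2% of protein-coding genes, and 8 were not analysed here. MNDA, a nuclear protein of myeloid cells, read 232, 294 and 269.7 CPM in lines 1, 2 and 3, and AIF1, a calcium-binding protein of the monocyte lineage, 153, 106 and 108 CPM. CD4, the T helper co-receptor that human monocytes also carry, read 279, 259 and 291 CPM and LYZ, lysozyme, 109, 110.1 and 116 CPM. CD33, the sialic acid binding lectin used as a myeloid marker, was almost the same in every line at 72.6, 72.6 and 72.4 CPM. All 5 genes were on in all lines, and none differed 2-fold between them. Of the 13 markers with a mean of 5 CPM or more, 1 differed 2-fold (7.69%, against 1.63% of all genes). It was MS4A7 at 2.65, 7.80 and 7.56 CPM, lowest in line 1. LYZ shares 34.0% of its exon bases with a gene on the other strand.

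The silent markers were CD14, the lipopolysaccharide co-receptor of mature monocytes, with 2, 0 and 2 counts in lines 1, 2 and 3, and CD86, a co-stimulatory ligand, with 2, 0 and 1 counts. Both stood at or under the floor. CSF1R, the receptor for the growth factor M-CSF, read 1.63, 0.365 and 0.608 CPM. Line 1 was the highest of the 3, and these levels rest on 19, 5 and 7 counts. CCR2, the receptor for the chemokine CCL2, was low at 0.770, 0.365 and 0.348 CPM. CD68, a lysosomal membrane glycoprotein of macrophages, read 0.770, 0.583 and 0.695 CPM, but 81.7% of its exon bases are shared with another gene on the same strand, and such reads were lost to the count. The low CD68 value is therefore uncertain. CD163, MRC1 and the C1q genes are among those not analysed here.

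**Figure D1:**
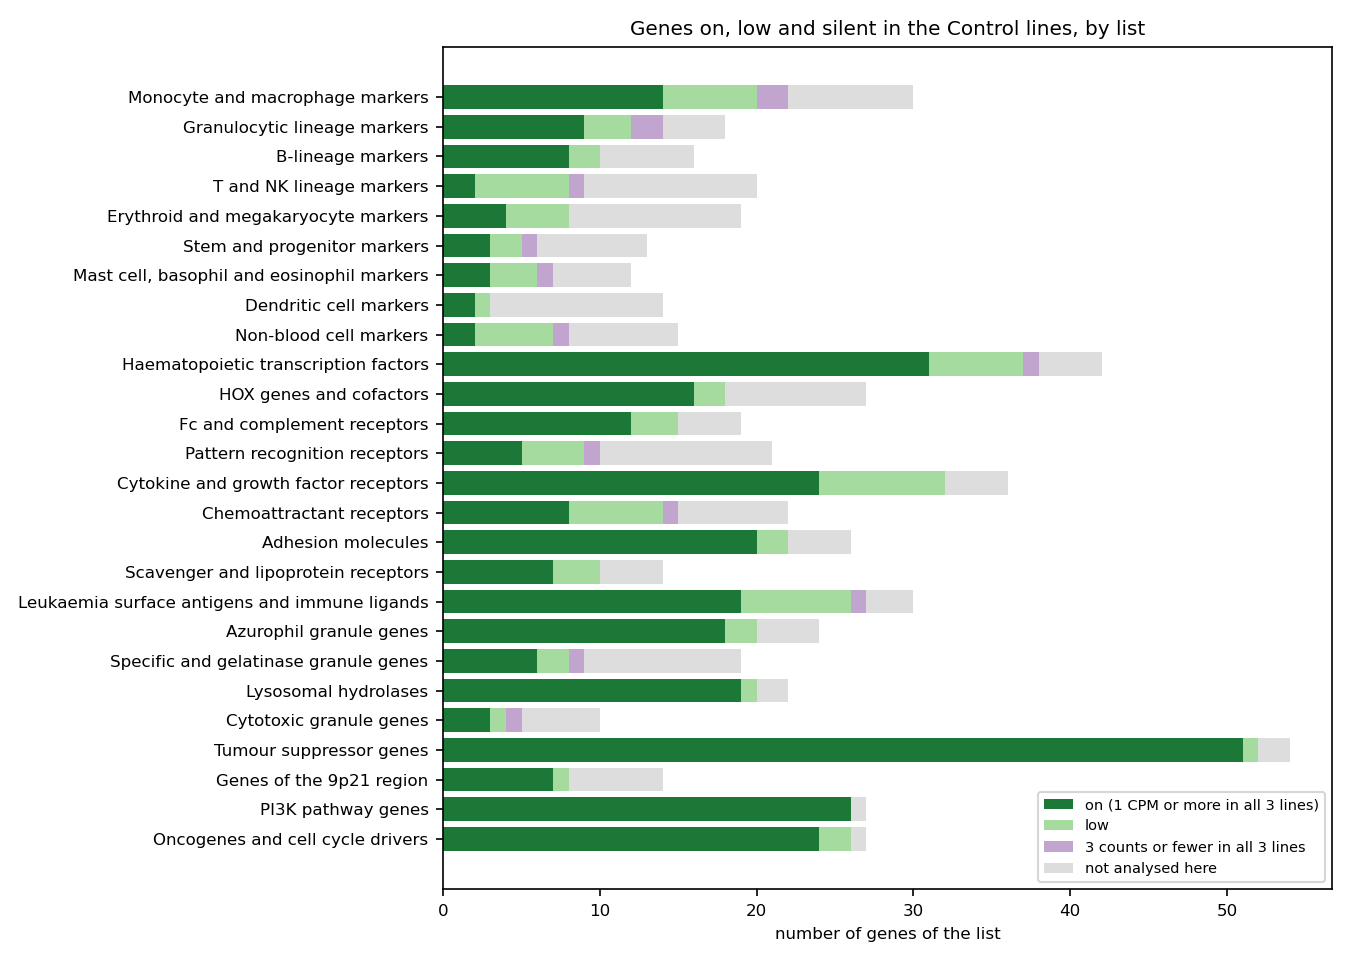
Horizontal bars give the number of genes of each list that were on, low or silent in the 3 Control lines, or not analysed here (x axis, genes). The tumour suppressor list is on almost throughout, with 51 of 52 measured genes on, while 2 of 9 measured T and NK genes are. Over all protein-coding genes 85.2% were on.

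Granulocytic genes were partly on. Of 14 measured, 9 were on (64.3%, against 72.4% of all genes and 85.2% of protein-coding genes), 3 low and 2 silent. GFI1, a repressor that steers progenitors to the neutrophil fate, read 233, 207 and 211 CPM, and CSF3R, the G-CSF receptor, 116, 69.6 and 79.96 CPM, highest in line 1. FUT4, which makes the CD15 sugar epitope, read 149, 191 and 192 CPM. The calgranulin S100A9, an abundant cytosolic protein of mature neutrophils and monocytes, was at 3.68, 5.10 and 5.39 CPM, and S100A8 at 1.03, 1.97 and 1.65 CPM. Neutrophil surface genes differed in class. CXCR2, a chemokine receptor, and MGAM, a maltase, were on at 8.64, 6.27 and 5.21 CPM and 20.5, 27.9 and 21.6 CPM, CEACAM6, an adhesion molecule, was low at 1.37, 0.365 and 0.695 CPM, and CXCR1 and CEACAM3 were silent. CXCR1 had 2, 2 and 3 counts in lines 1, 2 and 3, and CEACAM3 had 3, 0 and 0 counts.

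Some markers of other blood lineages were also on, though none of these lists reached the 85.2% on among protein-coding genes. In bulk RNA, a few cells with a high level and many cells with a low level cannot be told apart. Of 10 measured B-lineage markers, 8 were on, 2 low and 0 silent, and 6 more of the 16 listed were not analysed here. The share on, 80%, lay between the 72.4% of all genes and the 85.2% of protein-coding genes. CD79B and CD79A, the signalling chains of the B cell receptor, read 22.8, 46.8 and 52.1 CPM and 12.1, 8.17 and 12.1 CPM. PAX5, the B cell commitment factor, read 8.55, 18.9 and 16.1 CPM, lowest in line 1 as CD79B was. EBF1, an earlier factor of the same lineage, read 2.91, 4.16 and 4.52 CPM. The summed level of the list was 62.8, 98.5 and 107 CPM in lines 1, 2 and 3, lowest in line 1, and the B cell surface gene MS4A1 was not analysed here.

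The globin genes HBB and HBA2 were on, with 74.2, 112 and 133 CPM and 22.6, 32.5 and 37.1 CPM, lowest in line 1 in both cases. The paralogues HBA1 and HBA2 are nearly identical, so the split between them is uncertain. KLF1, the erythroid master regulator, was on at 2.65, 2.41 and 2.61 CPM, ALAS2, the haem synthesis enzyme of red cells, was at 0.171, 0.365 and 0 CPM, and GATA1 was not analysed here. Of the 8 measured erythroid and megakaryocyte genes, 4 were on and 4 low.

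T and NK genes were mostly low, with 2 on, 6 low and 1 silent among 9 measured. The exception was NKG7, a membrane protein of cytotoxic granules, at 174, 226 and 253 CPM. Its 233 CPM per kb put it above every measured monocyte marker of the list. NCAM1, the NK adhesion molecule CD56, was on at 3.25, 5.18 and 4.52 CPM, and CD2 was silent with 0, 3 and 3 counts. Among mast cell, basophil and eosinophil genes, 3 of 7 measured were on. These were RNASE2 (155, 131 and 139.7 CPM) and RNASE3 (63.98, 39.2 and 45.02 CPM), ribonucleases of eosinophil granules, and the tryptase TPSAB1 (40.2, 69.6 and 64.3 CPM). RNASE2 and RNASE3 are paralogues, as are TPSAB1 and TPSB2, and reads may be split between them.

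Of 6 measured stem and progenitor genes, 3 were on, 2 low and 1 silent. CD34 was not analysed here, KIT read 0.513, 1.46 and 0.608 CPM and THY1 was silent with 3, 3 and 2 counts. FLT3, a receptor tyrosine kinase of progenitors, read 2.82, 0.583 and 0.608 CPM, with line 1 above the other lines. CD38, an ectoenzyme of activated and progenitor cells, was on at 24.04, 42.4 and 45.1 CPM. Dendritic cell genes were rarely measured, with 2 of 3 on, led by BATF3 at 27.3, 16.8 and 16.8 CPM. Of 8 measured markers of epithelium, endothelium, fibroblasts and liver, 2 were on, namely COL1A1 at 2.99, 1.90 and 1.999 CPM and COL1A2 at 2.22, 1.68 and 1.56 CPM, and the whole list summed to 7.96, 7.44 and 7.82 CPM.

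**Figure D2:**
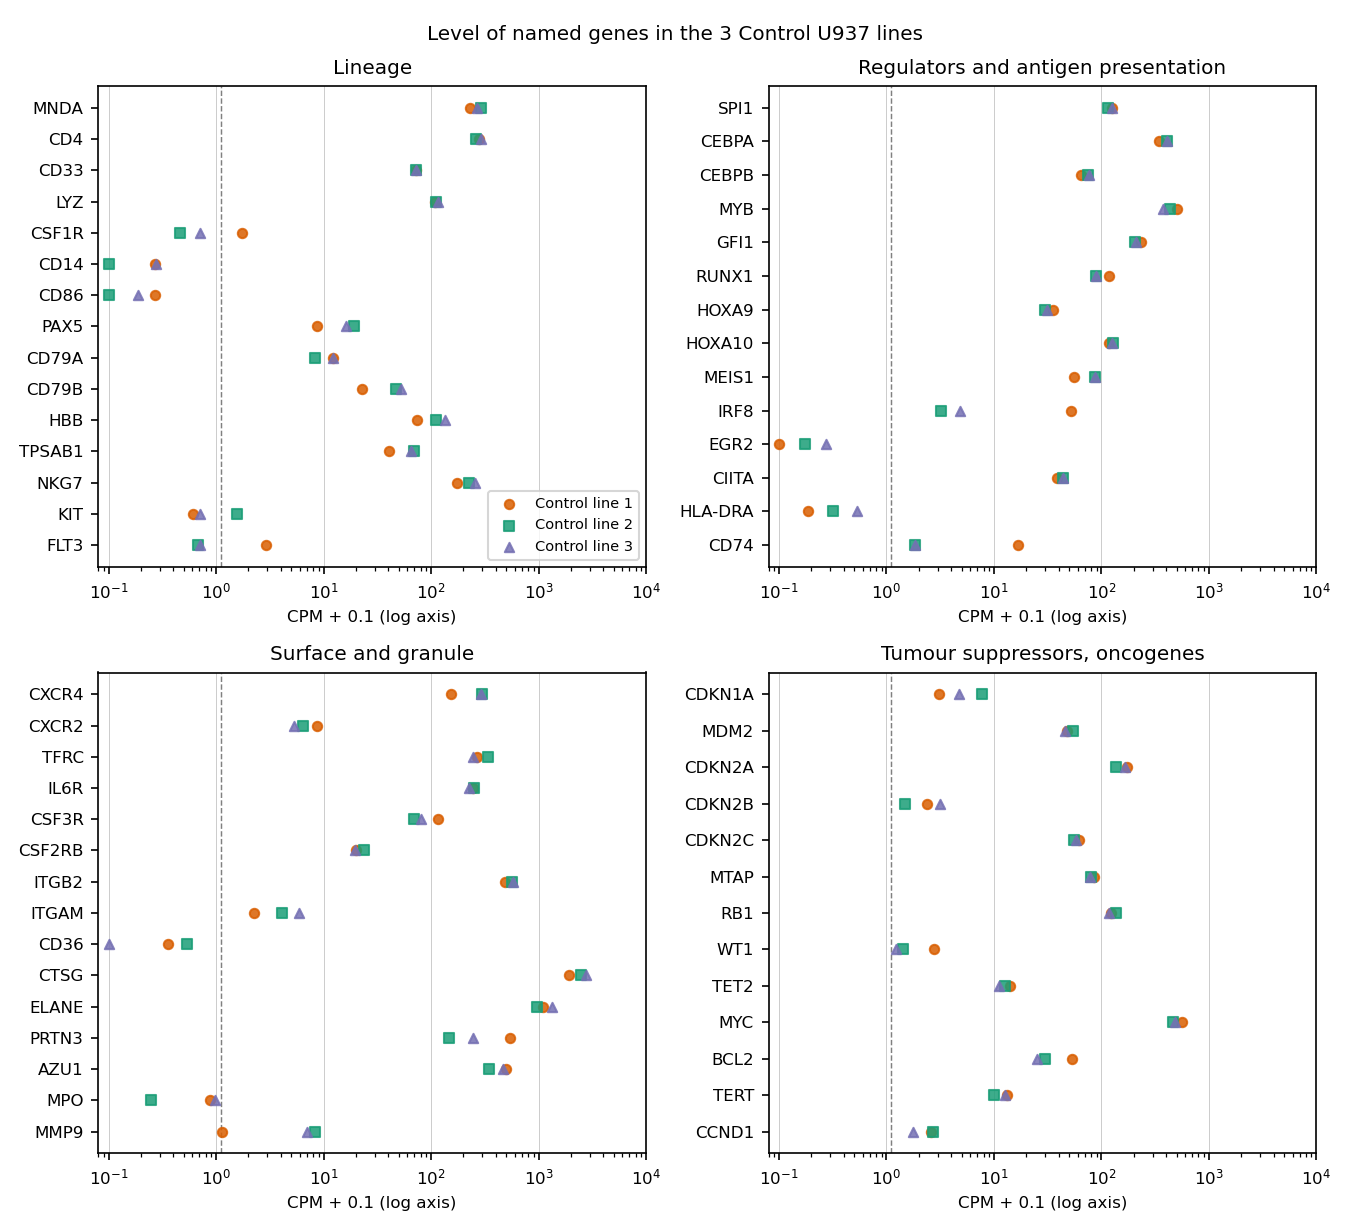
Each point is the level of a gene in a Control line (x axis, CPM + 0.1 on a log axis), in panels by role, with the dashed line at 1 CPM. The points of a gene mostly lie together, as for CD33 at 72.6, 72.6 and 72.4 CPM, while IRF8, CD74 and PRTN3 have line 1 apart.

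Of 38 measured haematopoietic transcription factors, 31 were on, 6 low and 1 silent. The share on, 81.6%, was near that of protein-coding genes (85.2%). CEBPA read 341, 410.1 and 412 CPM in lines 1, 2 and 3 and led the list per kilobase at 147 CPM per kb, though 43.4% of its exon bases are shared with a gene on the other strand. MYB read 499.6, 430.5 and 376 CPM, SPI1 126, 115 and 126 CPM and CEBPB 64.7, 75.4 and 75.96 CPM. RUNX1, the core binding factor subunit often altered in leukaemia, read 118, 88.4 and 88.6 CPM, and LYL1, a progenitor helix-loop-helix factor, 199, 157 and 179.6 CPM. Of these 6 factors, none differed 2-fold between the lines. EGR2, an immediate early factor of macrophage differentiation, was silent with 0, 1 and 2 counts, and the stem and mast cell factor GATA2 was low at 2.31, 0.948 and 1.65 CPM.

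IRF8, which drives the monocyte and dendritic cell fate, was the factor that separated the lines most. It read 52.3, 3.14 and 4.69 CPM in lines 1, 2 and 3, so that line 1 alone held a high level. NFE2, a factor of megakaryocytes and erythroid cells, varied as well, at 41.7, 18.7 and 25.2 CPM, again highest in line 1. ERG, an ETS factor of stem cells and endothelium, fell under the mean level needed to be counted as varying and read 5.90, 0.0729 and 0.261 CPM.

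The HOXA cluster was expressed up to HOXA13 with gaps, and HOXB2 to HOXB9 were not analysed here. Of 18 measured HOX genes and cofactors, 16 were on and 2 low (HOXA2 and HOXA4), and 0 of 14 with enough counts differed 2-fold between lines. HOXA10 had the highest level per kilobase (33.4 CPM per kb), with 118, 129 and 124 CPM in the lines. HOXA9, the HOX gene most tied to acute myeloid leukaemia, read 35.2, 29.97 and 31.2 CPM, HOXA11 36.6, 35.8 and 42.8 CPM and HOXA13 73.9, 85.3 and 90.1 CPM. MEIS1, the partner of HOXA9, read 55.9, 87.95 and 87.7 CPM, lowest in line 1. PICALM and MLLT10, which are joined by a translocation known in U937, read 67.7, 71.2 and 69.2 CPM and 18.7, 16.99 and 18.7 CPM, and counts per gene do not show the joined transcript. HOXA10 and HOXA11 overlap other transcripts of the cluster on 26.3% and 31.1% of their exon bases.

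The surface lists ranged in their share on from 50% for pattern recognition receptors to 90.9% for adhesion molecules. The share was 72.4% over all genes and 85.2% over protein-coding genes. Adhesion molecules were the only surface list above the share of protein-coding genes, and the differences between lists were not tested. Of 32 measured cytokine and growth factor receptors, 24 were on (75%) and 8 low. TFRC, the transferrin receptor, read 264, 336 and 245 CPM, IL6R 247, 249 and 226 CPM, TGFBR1 272, 334 and 297 CPM and TNFRSF1A, the main receptor for TNF, 161, 149 and 139 CPM. CSF2RB, the beta chain shared by the receptors for GM-CSF, IL-3 and IL-5, read 20.1, 23.8 and 19.6 CPM, while the IL-3 receptor alpha chain IL3RA was low at 0.257, 0.802 and 1.22 CPM. None of the 23 with enough counts differed 2-fold between lines.

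Of 22 measured adhesion molecules, 20 were on. ITGB2, the beta subunit common to leukocyte integrins, led per kilobase and read 492, 560.3 and 579.8 CPM. Its partners were unequal: ITGAL, the alpha chain of LFA-1, had 6.89 CPM per kb, whereas ITGAM and ITGAX, those of the complement receptors of mature phagocytes, had 0.702 and 0.436 CPM per kb. ITGAM read 2.14, 4.01 and 5.82 CPM in lines 1, 2 and 3. SPN, the mucin CD43, read 541, 386 and 425 CPM, ITGA5 362, 497 and 476 CPM and ITGA4 349, 401 and 323 CPM. ICAM1, a ligand of the leukocyte integrins, was the single adhesion gene that varied, with 22.3, 45.7 and 32.8 CPM.

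Among 15 measured chemoattractant receptors, 8 were on, 6 low and 1 silent. CXCR4, the receptor for CXCL12 that holds progenitors in the marrow, was the highest per kilobase and read 152, 299 and 292 CPM, with line 1 the lowest in a 1.97-fold range. LTB4R, the leukotriene B4 receptor, read 67.5, 70.7 and 77.4 CPM. FPR1 and C5AR1, receptors for bacterial peptides and complement C5a on mature phagocytes, were low at 0.684, 1.24 and 0.695 CPM and 0.855, 0.510 and 1.22 CPM. CXCR1 was silent.

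Of 10 measured pattern recognition receptors 5 were on. TLR4, which senses lipopolysaccharide, read 42.2, 33.6 and 29.2 CPM, but its co-receptors were at or near the floor: LY96 (MD-2) was at 0.171, 0.365 and 0.608 CPM and CD14 was silent. TLR2 read 8.98, 12.2 and 13.2 CPM and NOD1 32.2, 29.3 and 33.6 CPM. Of the Fc and complement receptors, 12 of 15 measured were on. FCGR2A read 27.6, 34.9 and 33.1 CPM and FCGR1A, the high affinity IgG receptor, 5.13, 5.18 and 7.39 CPM. CR1, the C3b receptor, varied at 5.13, 26.04 and 29.98 CPM, and FCAR, the IgA receptor, at 7.36, 20.1 and 17.03 CPM. Both were lowest in line 1.

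Scavenger receptor genes were partly on, 7 of 10 measured. SCARB1, which binds HDL, was steady at 97.3, 97.7 and 92.3 CPM, as was CLEC5A at 94.4, 103 and 79.2 CPM. CD36, which binds oxidised LDL, was at 0.257, 0.438 and 0 CPM, and MSR1 was not analysed here. Among leukaemia surface antigens and immune ligands 19 of 27 measured were on. They included CLEC12A at 50.8, 42.6 and 43.9 CPM, CD47, the signal that blocks phagocytosis, at 150.5, 167 and 158 CPM, and the cytokine gene TNFSF13B (BAFF) at 336, 283 and 248 CPM. CD274, which encodes PD-L1, was low at 0.855, 0.0729 and 0.608 CPM.

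MHC class I genes were on, while the class II list was mixed. B2M, the class I light chain, read 1261, 1426 and 1563 CPM, with 17 of 18 measured class I pathway genes on. HLA-B varied, at 222, 392 and 465 CPM. Of 12 measured class II pathway genes, 8 were on, 2 low and 2 silent. The genes on were CD74, 4 regulators and 3 HLA-D genes. Of the HLA-D genes on, the class II chain HLA-DRB1 read 3.51, 3.65 and 4.87 CPM. HLA-DMA and HLA-DOB, whose products act in peptide loading, read 1.97, 2.92 and 3.56 CPM and 1.63, 1.90 and 2.26 CPM. The class II chain HLA-DRA was low at 0.0855, 0.219 and 0.435 CPM, as was HLA-DPA1 at 0.171, 0 and 0.435 CPM, and HLA-DPB1 and HLA-DRB5 were silent. CIITA, the activator of class II genes, was on at 38.3, 44.3 and 43.4 CPM, as were the subunits of the RFX factor that binds class II promoters. RFX5 read 95.2, 96.5 and 89.2 CPM, RFXAP 23.1, 25.2 and 22.6 CPM and RFXANK 80.1, 57.98 and 63.9 CPM. CD74, the invariant chain of class II, was high in line 1 alone, at 16.7, 1.75 and 1.74 CPM. HLA genes are close in sequence and differ between people, so their counts are uncertain.

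Most measured granule genes were on, in the azurophil list and in the list of later granules, at different shares. Of 20 measured azurophil granule genes, 18 were on (90%) and 2 low, near the 85.2% on among protein-coding genes. The measured azurophil genes summed to 6635, 6879 and 7689 CPM in lines 1, 2 and 3. CTSG (ENSG00000100448) read 1904, 2490.1 and 2761 CPM and ELANE (ENSG00000197561), neutrophil elastase, 1089, 976 and 1329 CPM. AZU1, the inactive protease azurocidin, read 501, 346 and 471 CPM and SRGN, the proteoglycan that packs granule proteases, 1005, 1482 and 1431 CPM. PRTN3 (ENSG00000196415), proteinase 3, was the single azurophil gene that varied, with 541, 148 and 245 CPM. The 4 protease family genes, CTSG, ELANE, AZU1 and PRTN3, did not share an order: line 1 was the lowest for CTSG and the highest for PRTN3 and AZU1.

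MPO, myeloperoxidase, the main enzyme of azurophil granules in normal promyelocytes, stood apart from these proteases at 0.770, 0.146 and 0.869 CPM, with 9, 2 and 10 counts. BPI, a bactericidal protein of the same granules, was also low at 0.941, 0.292 and 1.22 CPM. CTSC, which activates the serine proteases, read 254, 280.1 and 255 CPM, and SERPINB1, their cytosolic inhibitor, 377, 283 and 283 CPM. CST7 (cystatin F), an inhibitor of lysosomal proteases, read 715, 575 and 688 CPM. MPO and BPI were the 2 low genes of the azurophil list.

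Specific and gelatinase granule genes, made later, were measured in 9 of 19 cases, with 6 on (66.7%), 2 low and 1 silent. This share on was below the 72.4% of all genes and the 85.2% of protein-coding genes. CYBA, a subunit of the oxidase that makes superoxide, read 313, 272 and 299 CPM, and its partner CYBB 4.11, 4.81 and 4.87 CPM. Per kilobase the pair stood at 87.8 and 1.04 CPM per kb. MMP25, a membrane protease, read 154, 146 and 153 CPM and shares 35.2% of its exon bases with a gene on the other strand. MMP8, neutrophil collagenase, was silent with 3, 1 and 1 counts, and LTF was not analysed here. MMP9, gelatinase B, and SLPI, an inhibitor of elastase, varied in opposite ways, at 1.03, 8.17 and 6.95 CPM and 9.50, 3.14 and 5.997 CPM. Of 20 measured lysosomal genes 19 were on (95%) and none varied, led by PSAP at 369, 509 and 539.8 CPM. CTSB, cathepsin B, read 229, 433 and 440.3 CPM. Among cytotoxic granule genes GZMA had 0 counts in every line, which allows up to 0.261 CPM, and GZMH was at 0.257, 0 and 0.435 CPM.

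Tumour suppressor genes were expressed almost without exception. Of 54 in the list, 52 were measured, 51 were on (98.1%), 1 was low and 0 were silent. The share on was 85.2% over all protein-coding genes and 72.4% over all genes. RB1, the brake on entry into S phase, read 123, 137 and 118 CPM, and VHL, the oxygen-dependent ubiquitin ligase subunit, 179.6, 198 and 193 CPM. CDKN1B, an inhibitor of cyclin-dependent kinases, read 98.03, 114 and 115 CPM and KEAP1, the sensor of oxidative stress, 122, 119 and 111 CPM. For none of these 4 did the lines differ 2-fold. FHIT, the low one, read 1.28, 1.17 and 0.782 CPM. WT1, a zinc finger gene that is often high in myeloid leukaemia, was on at 2.65, 1.31 and 1.13 CPM.

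CDKN1A, the kinase inhibitor p21, read 2.99, 7.66 and 4.61 CPM and differed 2.33-fold between lines 1 and 2. MDM2, a ubiquitin ligase, read 47.6, 54.04 and 45.7 CPM, and BAX, a pore-forming protein of apoptosis, 52.7, 45.5 and 44.3 CPM. Line 2 was the highest for CDKN1A and MDM2, and line 1 for BAX.

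CDKN2A, which encodes the inhibitor p16 and the MDM2 antagonist ARF, was on at 171, 136 and 164 CPM. The neighbouring CDKN2B (p15) was barely on at 2.31, 1.39 and 3.04 CPM, with 27, 19 and 35 counts, and the other neighbour MTAP, an enzyme of methionine salvage, read 85.97, 79.6 and 78.1 CPM. The chromosome 9 genes of this region were on in 7 of 8 measured cases (87.5%, against 85.2% of protein-coding genes). Those on included KLHL9 (43.7, 43.1 and 40.2 CPM) and MLLT3 (11.2, 12.9 and 12.9 CPM). DMRTA1 was low at 0.171, 0.365 and 0 CPM, and the interferon genes IFNA1 and IFNB1 of that region were not analysed here. Counts per gene do not tell p16 from ARF.

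All 26 measured PI3K pathway genes were on, against 85.2% of protein-coding genes, and none varied. The leukocyte catalytic subunit PIK3CD read 316, 407 and 419 CPM, and INPP5D, the lipid phosphatase SHIP1 of blood cells, 203, 195 and 206 CPM. Of 26 measured oncogenes and cell cycle drivers 24 were on (92.3%, against 85.2% of protein-coding genes). MYC read 563, 460.1 and 481 CPM in lines 1, 2 and 3, CDK6 380.3, 380.5 and 345 CPM and CDK4 266, 246 and 238 CPM. TERT, the catalytic subunit of telomerase, read 13.3, 9.85 and 12.6 CPM. CCND3 and CCND2 were well above CCND1 per kilobase (18.2 and 8.70 against 0.466 CPM per kb), and FLT3 and KIT were the low pair. BCL2, the inhibitor of apoptosis, was the one varying member at 53.6, 29.6 and 25.1 CPM, highest in line 1.

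The lines were much alike over most genes, and line 1 was the one that stood apart. Variation was read among the 11337 genes whose mean was 5 CPM or more, as the fold between the highest and lowest line on the scale of CPM + 0.5. The median gene differed 1.19-fold, 1029 genes differed 1.5-fold or more, and 185 differed 2-fold or more (1.63%). These 185 varying genes included 158 protein-coding genes, and 27 of them differed 4-fold. FDPS and RHOH lay just inside the limit (both 2.005-fold), and MT-ND6 (1.999-fold) and TSSK3 (1.997-fold) just outside.

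Line 1 was farther from the other lines than these were from each other in 169 of the 185 varying genes, or 91.4%. It was the higher one in 68 (0.6% of all genes read) and the lower one in 101 (0.891%). Line 2 stood apart in 9 varying genes and line 3 in 7. Over all 11337 genes the corresponding shares were 42.2%, 29.5% and 28.3%, which is less uneven. Lines 1 and 2 differed 2-fold in 146 genes, lines 1 and 3 in 146, and lines 2 and 3 in 6. The biological coefficient of variation estimated by edgeR was 7.93% for lines 2 and 3, against 15.0% for lines 1 and 2 and 14.4% for lines 1 and 3. With line 1 left out, 5 genes varied.

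**Figure D3:**
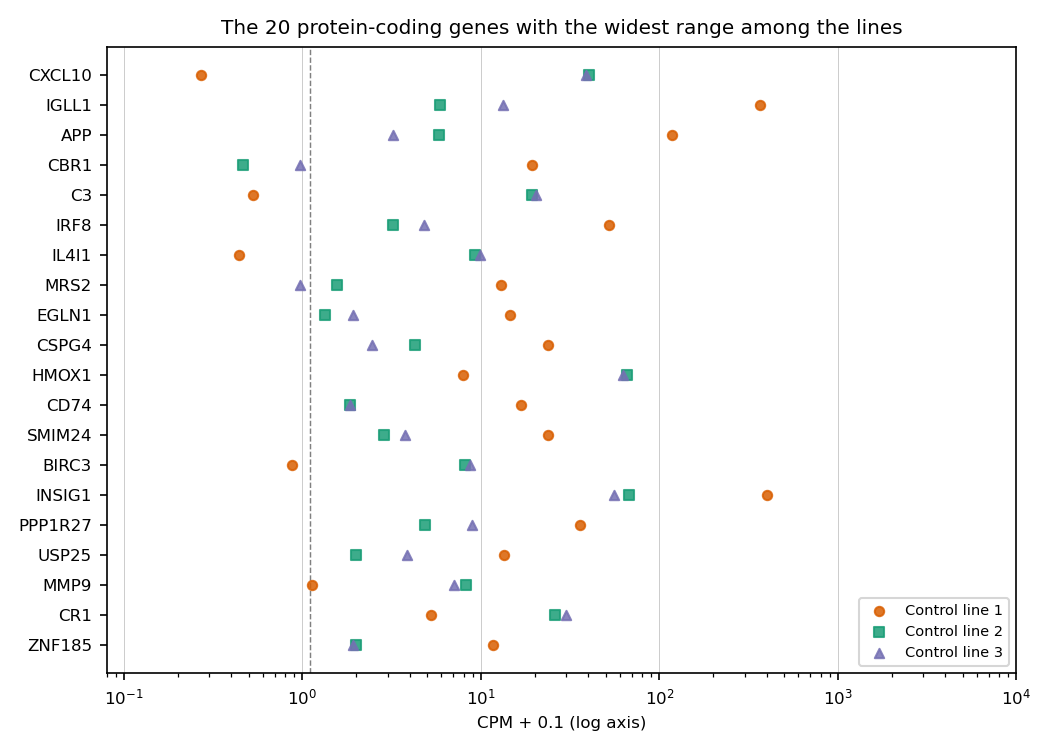
Each point is the level of a gene in a Control line (x axis, CPM + 0.1 on a log axis) for the 20 protein-coding genes with the widest range, widest at the top, with the dashed line at 1 CPM. In each of the 20 genes lines 2 and 3 lie nearer to each other than to line 1.

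Among the 20 protein-coding genes with the widest range, line 1 was the lowest in CXCL10, C3, IL4I1, HMOX1, BIRC3, MMP9 and CR1, and the highest in the other 13. CXCL10 (ENSG00000169245; GRCh38 chromosome 4, 76021117 to 76023497), a chemokine induced by interferon and NF-kB, read 0.171, 40.04 and 38.8 CPM. This was 2 counts in line 1 against 549 and 446, and the ratio of lines 2 and 3 to line 1 was 231 (63.7 to 1907), with its exact (Clopper-Pearson) 95% interval. All such intervals hold counting error alone, because the counts of lines 2 and 3 were pooled and no spread between lines or cultures entered. PCR copies of a molecule were not told apart, so the intervals may be too narrow even for counting error. C3, the central complement protein, read 0.428, 19.3 and 20.2 CPM and IL4I1, a secreted amino acid oxidase, 0.342, 9.19 and 9.82 CPM. They had 5 and 4 counts in line 1, and the ratios of lines 2 and 3 to line 1 were 46.1 (19.6 to 143) and 27.7 (10.7 to 102).

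IGLL1 (ENSG00000128322; chromosome 22, 23573125 to 23580308), the lambda-like surrogate light chain of the pre-B cell receptor, was the widest in the other direction. It read 366, 5.83 and 13.1 CPM in lines 1, 2 and 3, a ratio of line 1 to the others of 39.98 (35.01 to 45.8). AP000345.1, an antisense transcript that overlaps it, read 125, 1.24 and 4.61 CPM, and since the kit is not stated to mark strand these counts may be reads of IGLL1 itself. APP (ENSG00000142192; chromosome 21, 25880550 to 26171128), the amyloid precursor protein, read 118, 5.69 and 3.13 CPM, and CBR1, a carbonyl reductase, 19.3, 0.365 and 0.869 CPM. Their ratios of line 1 to the others were 26.04 (21.5 to 31.8) and 32.5 (19.3 to 59.04). Both lie on chromosome 21, where the widely varying USP25, a deubiquitinase, also lies (13.4, 1.90 and 3.74 CPM).

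Of the remaining genes that were highest in line 1, EGLN1, the prolyl hydroxylase that marks HIF for destruction, read 14.5, 1.24 and 1.83 CPM, and MRS2, a mitochondrial magnesium channel, 12.9, 1.46 and 0.869 CPM. CSPG4, the cell surface proteoglycan NG2, read 23.5, 4.16 and 2.35 CPM, a ratio of line 1 to the others of 7.06 (5.51 to 9.13). For each of the 3 genes lines 2 and 3 were within a few CPM of each other. SMIM24, PPP1R27 and ZNF185 were at 23.8, 35.6 and 11.6 CPM in line 1 and at most at 3.65, 8.78 and 1.90 CPM in the others. HMOX1, the haem-degrading oxygenase, went the other way at 7.87, 65.5 and 62.5 CPM, a ratio of lines 2 and 3 to line 1 of 8.15 (6.60 to 10.2).

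The genes of cholesterol synthesis and uptake were higher in line 1 as a list. Cells adjust this pathway by the SREBP factors, which are held in the endoplasmic reticulum by INSIG proteins when sterol is plentiful and raise synthesis and uptake when it is scarce. Of 21 genes with enough counts 15 varied (71.4%), all 15 with line 1 higher. Over all genes 1.63% varied, and 0.6% varied with line 1 higher. In 21 of 21 line 1 had the highest level, and in 20 it stood apart, against 42.2% of all genes read. The list's median fold was 2.40 against 1.19 over all genes. INSIG1 read 398, 67.3 and 55.7 CPM, a ratio of line 1 to the others of 6.42 (6.06 to 6.80). HMGCS1, the enzyme that makes HMG-CoA, read 88.5, 24.1 and 20.7 CPM and MSMO1, a sterol demethylation enzyme, 47.7, 14.6 and 13.7 CPM. SREBF2, which encodes the SREBP-2 factor itself, read 292, 168 and 148 CPM. The first 3 of these 4 genes varied and SREBF2 (1.97-fold) did not. PMVK was the least uneven enzyme at 83.5, 76.4 and 80.8 CPM. The list's summed level was 3513, 1570 and 1459 CPM in lines 1, 2 and 3.

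NF-kB target and cytokine genes were lower in line 1 as a list. NF-kB factors sit in the cytoplasm bound by inhibitors such as the product of NFKBIA, and once freed they raise these same inhibitors together with cytokines and survival genes. Of 15 genes with enough counts 8 varied (53.3%), all 8 with line 1 lower. Over all genes 1.63% varied, and 0.891% varied with line 1 lower. In 15 of 15 line 1 had the lowest level, and in 14 it stood apart, against 42.2% of all genes read. The list's median fold was 2.03. The subunit genes NFKB2 and RELB of the noncanonical arm read 31.4, 94.5 and 93.1 CPM and 8.21, 30.5 and 31.9 CPM. The inhibitors NFKBIA and TNFAIP3 (A20) read 17.8, 42.6 and 43.8 CPM and 10.4, 41.4 and 39.98 CPM, and BIRC3, an inhibitor of apoptosis, 0.770, 8.10 and 8.60 CPM. In all 5 genes lines 2 and 3 were close and line 1 was far below. NFKB1 at 55.9, 67.5 and 61.5 CPM and the chemokine CCL5 at 178, 204 and 222 CPM did not vary. The other varying members were ICAM1, given above, CD83 at 21.98, 47.5 and 41.2 CPM and BCL2A1 at 12.9, 24.7 and 29.7 CPM.

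**Figure D4:**
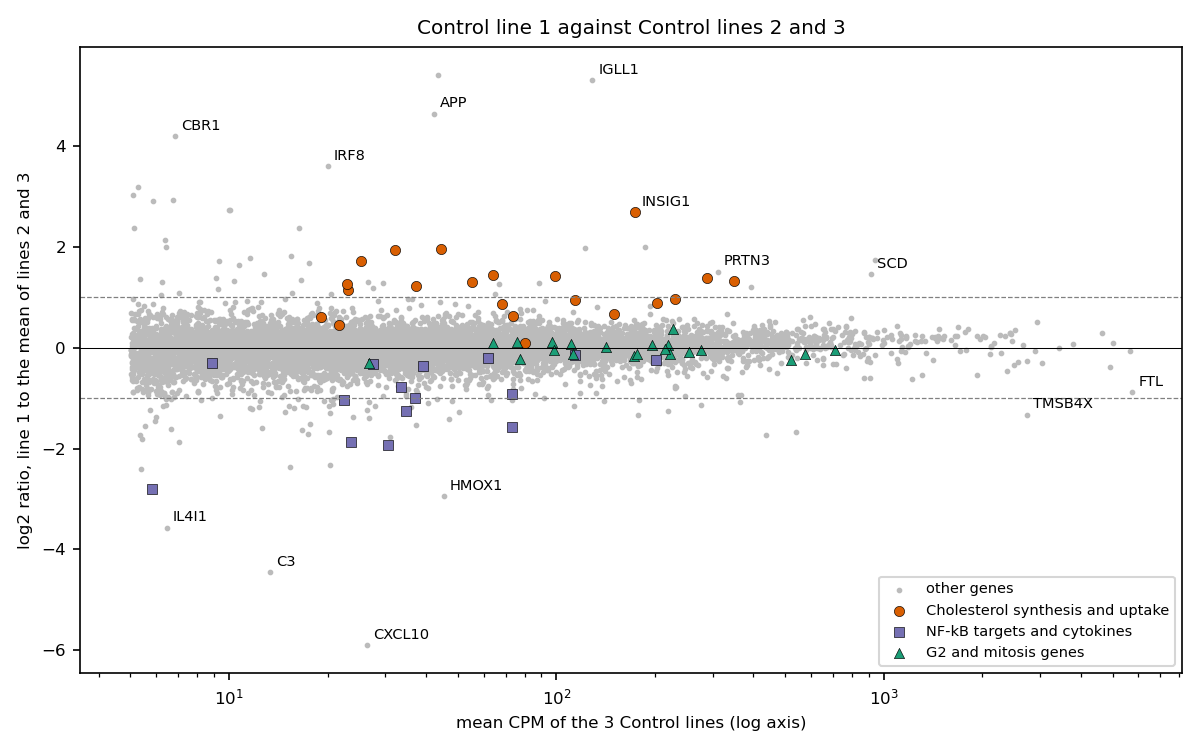
Each point is a gene averaging 5 CPM or more, at its mean over the 3 lines (x axis, log scale) and its log2 ratio of line 1 to the mean of lines 2 and 3 (y axis), with dashed lines at 2-fold. The 21 cholesterol genes (circles) all lie above 0 and the 15 NF-kB genes (squares) all lie below it, while the 21 G2 and mitosis genes (triangles) lie near 0.

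Since members of these 2 lists moved together, the 250 bases before their gene starts were searched for a motif known for each pathway, in the RefSeq promoter table of build GRCh38.p14. The motifs were chosen after the levels had been seen, and 17 genes of each list were matched in the table. A kB-like motif, GGNNTTTCC on either strand (reverse GGAAANNCC), was found for 10 of 17 NF-kB genes (58.8%), 3 of 17 cholesterol genes and 6.69% of 27305 genes in all. The CCAAT box on either strand (reverse ATTGG), bound by NF-Y, which acts beside SREBP at sterol genes, was found for 15 of 17 cholesterol genes (88.2%), 3 of 17 NF-kB genes and 37.0% of all genes. Among genes whose mean was 5 CPM or more the shares were 8.14% and 41.4%. The lists were made of genes known for these pathways, so these shares describe the lists and say nothing of the differences between lines. The varying genes BCL2A1 and CD83 held no kB-like match, while NFKB1, which did not vary, held 1. A match is a run of letters and not a shown binding site. For example members with a wide range among the lines, 1 window each is shown, chosen because it held a match to its list's motif. That match was therefore set in advance, and windows of these genes without it could not appear. The windows below are written 5′ to 3′ on the strand of the gene, with the letters matched by either motif in capitals:
NFKB2 (chr10:102394328-102394577, plus strand): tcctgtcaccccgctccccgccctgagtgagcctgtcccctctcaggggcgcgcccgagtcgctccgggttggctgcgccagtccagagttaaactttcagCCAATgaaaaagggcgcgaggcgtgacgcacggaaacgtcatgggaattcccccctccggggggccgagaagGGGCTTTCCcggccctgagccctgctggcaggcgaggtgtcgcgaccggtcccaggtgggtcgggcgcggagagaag
TNFAIP3 (chr6:137867009-137867258, plus strand): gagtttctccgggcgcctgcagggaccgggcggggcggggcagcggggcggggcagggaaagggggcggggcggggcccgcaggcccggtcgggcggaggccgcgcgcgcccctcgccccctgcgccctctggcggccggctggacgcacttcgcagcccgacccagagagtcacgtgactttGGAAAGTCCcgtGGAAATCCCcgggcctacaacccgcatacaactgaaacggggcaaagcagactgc
BIRC3 (chr11:102317234-102317483, plus strand): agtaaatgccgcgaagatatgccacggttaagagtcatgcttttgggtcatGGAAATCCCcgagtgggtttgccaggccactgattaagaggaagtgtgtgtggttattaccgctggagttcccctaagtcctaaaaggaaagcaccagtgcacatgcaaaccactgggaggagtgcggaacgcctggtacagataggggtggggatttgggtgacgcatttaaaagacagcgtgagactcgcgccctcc
INSIG1 (chr7:155297628-155297877, plus strand): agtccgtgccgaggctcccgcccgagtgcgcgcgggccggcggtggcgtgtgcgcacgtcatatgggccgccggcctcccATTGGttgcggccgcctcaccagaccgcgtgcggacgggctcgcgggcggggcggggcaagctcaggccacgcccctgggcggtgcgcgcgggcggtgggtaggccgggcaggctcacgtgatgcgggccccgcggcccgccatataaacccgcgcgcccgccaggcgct
HMGCS1 (chr5:43313413-43313662, minus strand): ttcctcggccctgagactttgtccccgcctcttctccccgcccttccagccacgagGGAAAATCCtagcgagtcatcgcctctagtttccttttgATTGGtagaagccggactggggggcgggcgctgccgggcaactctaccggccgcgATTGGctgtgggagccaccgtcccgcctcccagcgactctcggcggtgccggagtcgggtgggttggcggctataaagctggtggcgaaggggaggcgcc
Runs of 9 capitals are the kB-like motif and runs of 5 the CCAAT box. NFKB2 held a match to each, TNFAIP3 a pair of kB-like matches close to its start, BIRC3 a single kB-like match and INSIG1 a single CCAAT box. HMGCS1 held a pair of CCAAT boxes and also 1 kB-like match.

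In glycolysis and the hypoxia response line 1 stood apart, to either side, in 16 of 24 genes, against 42.2% of all genes read. Of the 24 genes 4 varied (16.7%, against 1.63% of all genes), all lower in line 1. These were P4HA1, a collagen prolyl hydroxylase (88.2, 204 and 241 CPM), PFKFB4 (13.6, 28.9 and 36.8 CPM), ENO2 (5.99, 12.98 and 15.7 CPM) and NDRG1 (113, 264 and 282 CPM). LDHA, which makes lactate, read 953, 1161 and 1196 CPM and SLC2A1, the glucose transporter, 84.9, 74.8 and 74.9 CPM, and neither varied. Of 14 interferon response genes 1 varied, the viral RNA sensor IFIH1 at 21.98, 64.8 and 54.1 CPM, while STAT2, a subunit of the interferon factor, read 21.2, 22.8 and 26.6 CPM and the interferon marker IFI27 was silent. Of 12 immediate early genes 2 varied, both lowest in line 1, the transcription factor gene JUN at 8.98, 18.6 and 16.6 CPM and the growth inhibitor BTG2 at 5.13, 9.92 and 11.6 CPM. None of 21 S phase genes, 21 G2 and mitosis genes or 13 heat shock genes varied, with median folds of 1.22, 1.15 and 1.21. PCNA, the replication clamp, read 693, 709 and 668 CPM, and MKI67, a marker of cycling cells, 466, 539.7 and 558 CPM. Of 12 mitochondrially encoded protein genes none varied, though MT-ND6 missed the limit narrowly at 1.999-fold. Outside that list, 1 mitochondrial ribosomal RNA gene did vary. The median fold of the 12 was 1.69, with line 2 low and line 3 high as in the mitochondrial shares of counts given above.

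Tumour suppressor genes varied in 3 of 49 cases. TNFAIP3 and CYLD, deubiquitinases that restrain NF-kB, were both lowest in line 1, with CYLD at 11.1, 25.1 and 22.5 CPM, and CDKN1A was highest in line 2. The list's median fold of 1.13 was below the 1.19 of all genes. The lists of Fc and complement receptors and of B-lineage markers varied in 2 of 9 and 2 of 5 cases, in each case with line 1 lower, against 1.63% of all genes varying and 0.891% varying with line 1 lower. IGLL1, a B-lineage gene outside that list, went the other way, as given above.

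Neighbouring genes on a few chromosomes were shifted together, most often in line 1. Medians were taken over 20 Mb windows of genes averaging 8 CPM or more, as the log2 ratio of each line to the mean of the others. Of 146 windows, 10 had a line beyond 0.15 in size, a limit set after the values were seen, and line 1 was beyond it in 9 of them, line 2 in 5 and line 3 in 4. A shift of 1 line also moves the ratios of the others. On the first 40 Mb of X, 65 of 67 genes lay below the other lines in line 1, at a median ratio of 0.745, while the rest of X was at 1.03. The varying genes TMSB4X, REPS2 (1.71, 7.66 and 6.87 CPM) and SAT1 (25.5, 52.1 and 52.4 CPM) lie in that stretch. On chromosome 21, 77 of 95 genes lay above, at a median ratio of 1.17, and on the first 20 Mb of chromosome 19, 304 of 365 did, at 1.16. In that window of chromosome 19 line 2 lay about as far the other way, with median log2 ratios of 0.21, -0.20 and -0.03 in lines 1, 2 and 3. Line 1 was also shifted at 220 to 240 and 240 to 260 Mb of chromosome 1 (median log2 ratios of 0.202 and 0.239). At 120 to 140 Mb of chromosome 10 its ratio was -0.196. The remaining shifted windows, on chromosomes 5 and 18, lay barely beyond the limit. Copy number was not measured, and its part in these shifts was not tested. Chromosome 21 held 8 varying genes of 105, 6 of them higher in line 1, among them LSS of cholesterol synthesis (168, 80.4 and 93.9 CPM). The shifted windows held 20 varying genes of 771 (2.59%), and 165 of the 185 varying genes lay elsewhere.

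**Figure D5:**
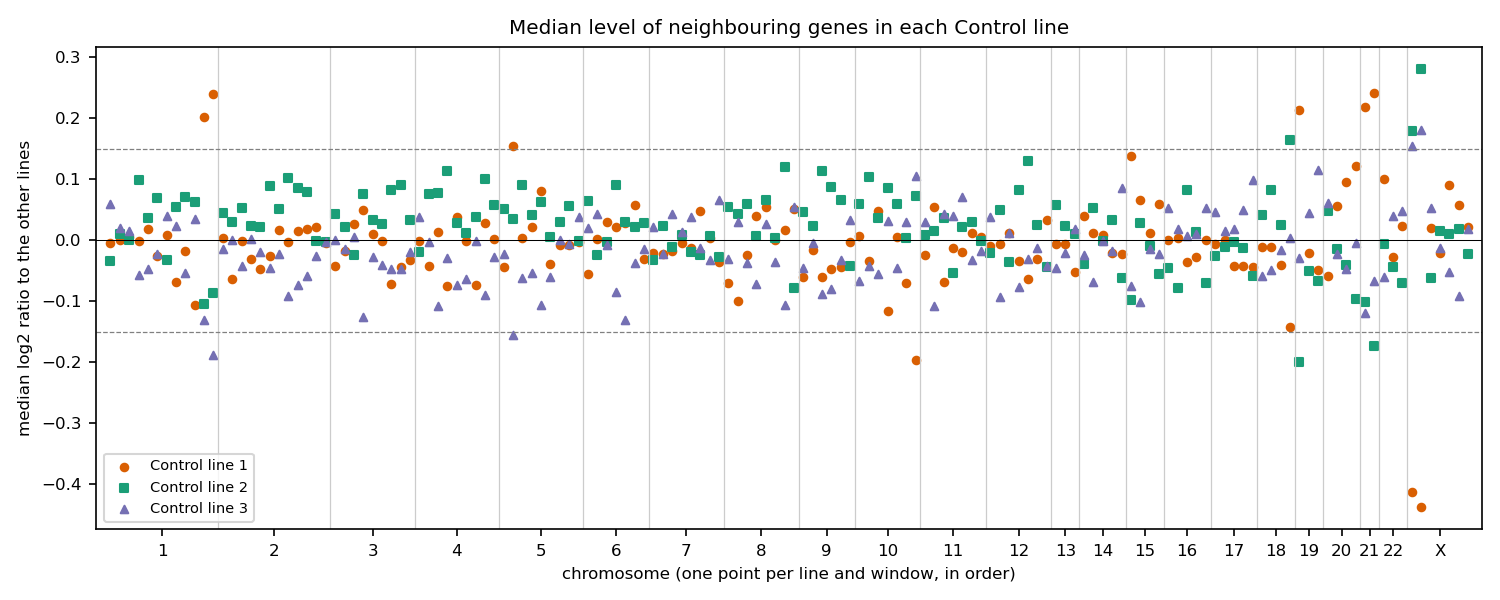
Each point is the median log2 ratio of a Control line to the mean of the other lines over the genes of a window (y axis), with windows in order along the chromosomes (x axis) and dashed lines at 0.15. Line 1 lies lowest in the first windows of X and is also beyond the limit, on the lower side, at the end of chromosome 10. It lies above the limit at the end of chromosome 1, on chromosome 21 and at the start of chromosome 19. In that last window line 2 is beyond the limit the other way, while most windows lie near 0 in all 3 lines.

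Reads of a gene and of a transcript on its other strand cannot be told apart in some places. The kit is not stated to mark strand, and with a kit that does not, counts of an antisense gene may be reads of the gene opposite. Of 337 annotated antisense genes that lie inside exons of the opposite strand 250 had counts, whereas of 322 protein-coding genes inside exons of the same strand 3 did. Counting thus assigned reads by strand and dropped those that fit more than 1 gene of a strand. AC006064.4, an antisense transcript inside GAPDH, reached 2132 ± 203 CPM (SD, n = 3). Antisense genes held 3.52% of counts, and 9 of the 14 varying antisense genes overlapped another varying gene. BEST1, an ion channel gene of the eye, read 171, 616 and 523 CPM beside its opposite-strand neighbour FTH1, the ferritin heavy chain, at 218, 759 and 641 CPM. Same-strand overlap may understate ALDOA, ASNS, IRF9, PRG2, CTSD and CD68.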

How the data were processed

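The values are raw read counts, whole and unnormalized, deposited by the authors as 1 table of Ensembl gene identifiers. The submitters' processing notes name HTSeq 0.11.1, HISAT2 2.0.0, SAMtools 1.5.9, FastQC and build GRCh38.p12. For the annotation release, strand setting and any filter, the sources used here give nothing. Only the 3 Control columns were used, by label. Symbols, positions, exon lengths and overlaps came from GENCODE 29, matched for 18771 of 18798 genes. CPM used TMM factors of the 3 libraries from edgeR 4.0.16 (R 4.3.3), which also gave the coefficients of variation; DESeq2 1.42.0 gave other size factors, and the rest was computed in Python 3.11.15. A total of 2 genes (Y-linked or XIST) were left out. For SOD2, which has more than 1 identifier, the one with the higher mean was used. The rule for varying genes was also run on simulated counts whose changes were well above or well below 2-fold. Those counts held counting error alone, so the run checked the code and not the number of genes called.

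The members and the 39 lists (809 genes, 652 measured) were chosen with earlier results of these data known. Named genes were the 20 highest by CPM, the 10 highest per kilobase, up to 4 of the highest, silent and most varying members of each list, a preset set of lineage, granule and tumour genes, and the 20 widest in range. Other genes were named after their values were seen, and some genes that the rule names are not shown. Alternatives were other size factors, thresholds, pseudocounts, thinning and leaving out each line; leaving out overlapping genes and shifted windows was chosen after seeing the data.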

Additional observations from a re-analysis of the deposited data

How the results depend on the processing

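Of 34 alternatives, 24 kept their count within 1.5 times. The 889 silent genes became 3514 at 10 counts or fewer, 19 at 0 counts, and 1270 to 1377 when a line was left out, the highest without line 2, since fewer lines have to meet the limit. The 185 varying genes became 581 at a mean of at least 1 CPM, 82 at 20 CPM, 1029 at 1.5-fold and 27 at 4-fold, and 5 to 153 when a line was left out, with 5 without line 1. The 169 varying genes with line 1 apart became 82 at 20 CPM and 27 at 4-fold, as fewer genes were read. DESeq2 size factors and thinning left 185 varying genes, and plain totals gave 192. Leaving out genes with shared exon bases gave 161, leaving out shifted windows 165. Of the 10 highest genes per kilobase, 7 stayed with longest-transcript lengths. No paired analysis was possible because only 1 group entered and no test was made. At 3 counts, about 0.2 CPM, low genes cannot be ordered between the lines.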

Other observations

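Some groups outside the lists were read after their values had been seen and are given as levels only. The first are 6 genes of fatty acid synthesis and desaturation, picked for their values. SCD, the desaturase that makes oleic acid, read 1588, 617 and 539 CPM in lines 1, 2 and 3, FADS2 372, 109 and 79.3 CPM and FADS1 243, 72.8 and 52.5 CPM. FASN, fatty acid synthase, read 632, 265 and 285 CPM. SREBF1, which encodes the SREBP-1 factor, read 202, 123 and 126 CPM, and ACLY, which makes their acetyl-CoA, 370.1, 288 and 237 CPM. Line 1 was the highest line in all 6, and the first 4 differed 2-fold or more.

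Several genes of haem, iron and oxidative stress, also picked for their values, were lowest in line 1. Besides HMOX1, FTL and FTH1, SLC48A1, a haem transporter, read 25.7, 64.2 and 61.6 CPM, OSGIN1 6.50, 26.7 and 19.1 CPM and SQSTM1, an autophagy receptor, 152, 364 and 312 CPM. SLC7A11, the cystine transporter, read 21.5, 54.8 and 35.8 CPM. NQO1 (48.2, 75.2 and 65.8 CPM), TXNRD1 (242, 429 and 317 CPM) and GCLM (51.2, 93.8 and 75.96 CPM), known targets of the same stress factor NRF2, were also lowest in line 1 but differed less than 2-fold. TXN, thioredoxin, at 278, 291 and 289 CPM was nearly even across the lines.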
